A study of Homo sapiens and Mus musculus with 13 samples.

Results

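The genes described here make the machinery of MHC antigen processing and presentation. The members were chosen by name: 41 genes, 20 human and 21 mouse, out of 24523 gene symbols in the human table and 55228 in the mouse table. They were split into class I (16 human, 15 mouse) and class II (4 human, 6 mouse). All 21 mouse members and 19 of the 20 human members had an entry of their own with a mean of at least 0.5 FPKM (fragments per kilobase of gene, scaled to the fragments of the library), the level above which a gene was tested. TAPBP was listed in the human table only in a joint entry with ZBTB22. Its joint level is given below without a test.

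MHC class I molecules pair a heavy chain with beta 2-microglobulin and show peptides from the cytosol to CD8 T cells. The immunoproteasome cuts these peptides, the TAP transporter carries them into the endoplasmic reticulum, chaperones load them and ERAP aminopeptidases trim them. MHC class II molecules show peptides from endosomes to CD4 T cells, with CD74 (the invariant chain) guarding the groove and HLA-DM exchanging the peptide. NLRC5 and CIITA are the transactivators of class I and class II genes. Class II is mostly made by dendritic cells, macrophages and B cells, and many epithelial tumors make some of it under interferon gamma.

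RNA was measured in 7 lines of MDA-MB-231, a human triple-negative breast cancer cell line, and in 6 mammary tumors of mice. Each line carried Cas9 with guide RNAs from a lentivirus and was selected with puromycin, and no source used here says whether lines were cloned. The Control line (n = 1) carried a guide to GFP. TRIM11-KD lines 1 and 2 carried TRIM11 guide 1 or 2, and KDM5C-KD lines 1 and 2 carried KDM5C guide 1 or 2. DKD lines 1 and 2 (double knockdown) carried TRIM11 guide 1 or 2 together with KDM5C guide 2, the guide of KDM5C-KD 2. TRIM11 is a ubiquitin ligase and KDM5C a demethylase of histone H3 lysine 4. All tumors came from 3-month-old female MMTV-PyVT mice, in which a mammary promoter drives a viral oncogene, bred after backcrossing as hybrids of the strains C57BL/6N and, as the source of the oncogene, FVB/N-Tg (MMTV-PyVT) 634Mul/J. In 5 of the 6 labels the line number differs from this one, up to 639Mul/J. The 3 Trim11+/- tumors carried 1 allele with exons 2 to 6 deleted, in every cell of the animal, and the 3 Trim11+/+ tumors were wild type. Nothing says that lines of a knockdown are independent cultures beyond their guides, so p-values measure only the spread between these samples, which may be technical.

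The libraries bore out most labels. Trim11 was at 35.8, 36.3 and 39.2 FPKM in Trim11+/+ tumors and at 24.0, 22.8 and 22.9 FPKM in Trim11+/- tumors. KDM5C was at 18.8 to 22.7 FPKM in the 4 lines with a KDM5C guide and at 28.4 to 30.3 FPKM in the 3 without. TRIM11 mRNA was not lower in TRIM11-KD 1 (13.4 FPKM) or DKD 1 (16.1 FPKM) than in Control (12.6 FPKM), so TRIM11 mRNA does not check the label of these lines. KDM5C-KD 2 stood apart: of 12636 genes tested it had the lowest level of the 7 lines for 23.4% and the highest for 24.3%. The cell line markers VIM, CD44, CAV1 and AXL summed to 1970 to 2480 FPKM, PGR was at 0 and ESR1 at 0 to 0.0234 FPKM. Among leukocyte markers, CD3E reached 0.0553 FPKM, PTPRC 0.98 FPKM (in KDM5C-KD 2) and CSF1R 1.21 FPKM. Tumor reads were recovered from the FPKM steps at 8793199 to 11117125 per tumor, while the depth of the human libraries is unknown.

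Promoters of 5 members are shown because these genes carry the human results: HLA-B and HLA-F were lowest in KDM5C-KD 2, CD74 and HLA-DMA were higher in DKD than in KDM5C-KD, and B2M moved least of the 5. Each run is the 250 bases before the start site, written 5' to 3' on the gene's strand, from RefSeq on GRCh38.p14. Capitals mark ATTGG or its complement CCAAT (the core of the Y box bound by NF-Y) and GAAA repeated after any 2 bases, or its complement (a motif of interferon response elements), searched on both strands. The windows are chr6:31357180-31357429 (minus strand) for HLA-B, chr6:29723184-29723433 (plus) for HLA-F, chr15:44711267-44711516 (plus) for B2M, chr6:32953098-32953347 (minus) for HLA-DMA and chr5:150412911-150413160 (minus) for CD74.

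HLA-B: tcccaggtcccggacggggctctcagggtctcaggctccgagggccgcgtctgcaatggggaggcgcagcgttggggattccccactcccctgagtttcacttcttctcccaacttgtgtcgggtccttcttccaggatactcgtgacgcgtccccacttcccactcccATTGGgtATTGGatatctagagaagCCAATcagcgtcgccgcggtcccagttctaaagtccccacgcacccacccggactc

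HLA-F: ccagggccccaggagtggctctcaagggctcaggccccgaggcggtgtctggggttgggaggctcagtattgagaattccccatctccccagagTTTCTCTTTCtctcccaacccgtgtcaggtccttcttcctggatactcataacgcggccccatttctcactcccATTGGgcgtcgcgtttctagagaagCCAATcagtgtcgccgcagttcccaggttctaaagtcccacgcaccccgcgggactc

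B2M: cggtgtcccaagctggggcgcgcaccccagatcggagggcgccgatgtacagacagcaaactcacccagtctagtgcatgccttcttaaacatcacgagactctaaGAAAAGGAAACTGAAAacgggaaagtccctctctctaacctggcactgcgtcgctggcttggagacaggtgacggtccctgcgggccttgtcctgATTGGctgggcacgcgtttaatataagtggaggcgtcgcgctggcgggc

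HLA-DMA: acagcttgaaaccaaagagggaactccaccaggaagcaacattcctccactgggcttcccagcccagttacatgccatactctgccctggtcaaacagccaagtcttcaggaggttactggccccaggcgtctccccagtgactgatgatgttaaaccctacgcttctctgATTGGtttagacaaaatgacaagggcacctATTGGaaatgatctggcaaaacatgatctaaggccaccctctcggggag

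CD74: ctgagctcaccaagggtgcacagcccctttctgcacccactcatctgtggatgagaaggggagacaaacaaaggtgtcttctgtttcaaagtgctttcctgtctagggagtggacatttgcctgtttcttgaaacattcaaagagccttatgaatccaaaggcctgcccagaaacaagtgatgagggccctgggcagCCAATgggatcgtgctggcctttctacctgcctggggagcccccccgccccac

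HLA-B held 3 Y box cores, HLA-F and HLA-DMA 2 each, and B2M and CD74 1 each. In B2M, 2 matches of the interferon motif overlap, from 144 to 129 bases before the start, and HLA-F held 1 match. Of the 20 human members, 15 had a promoter in the table, and HLA-E, PDIA3, NLRC5, HLA-DRA and CIITA had none. Both class II members and 8 of 13 class I members held the Y box core, against 37% of all genes with a promoter in the table. The interferon motif was found in 7 of 13 class I members (HLA-F, B2M, TAP1, TAP2, TAPBP, PSMB10 and ERAP2), against 3.71% of all genes, and in neither class II member. A match is a stretch of letters and was not tested for binding.

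HLA-DRA, CIITA and CD74, 3 of the 4 class II genes, ranged more widely over the cell lines than any class I member. In each of the 4, both DKD lines were above the other 5 lines, both TRIM11-KD lines were below Control, and both KDM5C-KD lines were below Control. HLA-DRA, the alpha chain of HLA-DR (chromosome 6, 32407655 to 32412823, hg19), was at 2.80 FPKM in Control, 2.097 and 1.784 in TRIM11-KD, 1.75 and 0.268 in KDM5C-KD, and 9.05 and 5.68 in DKD. CD74 (chromosome 5, 149781200 to 149792532) was at 138.9 FPKM in Control, 130.8 and 126.1 in TRIM11-KD, 109.9 and 38.3 in KDM5C-KD, and 238.2 and 210.0 in DKD. The order of groups was the same for both genes, and KDM5C-KD 2 was far below KDM5C-KD 1. HLA-DMA, a chain of the peptide exchange factor, was at 9.34 FPKM in Control, 5.89 and 6.13 in TRIM11-KD, 4.80 and 5.67 in KDM5C-KD, and 9.68 and 10.8 in DKD. CIITA was at 0.698 FPKM in Control, 0.407 and 0.534 in TRIM11-KD, 0.466 and 0.114 in KDM5C-KD, and 1.25 and 1.37 in DKD. CIITA lay near the limit of 0.5 FPKM in the 5 lines without both guides, and its mean over those 5 was 0.444 FPKM. It was tested only because of the DKD lines, where it was high. Counts, medians and tests that involve DKD are therefore given without it, except where stated, and its differences are given as sizes only. For HLA-DMA the DKD lines lay close to Control, and the 4 lines with guides to a single gene lay below.

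**Figure D1:**
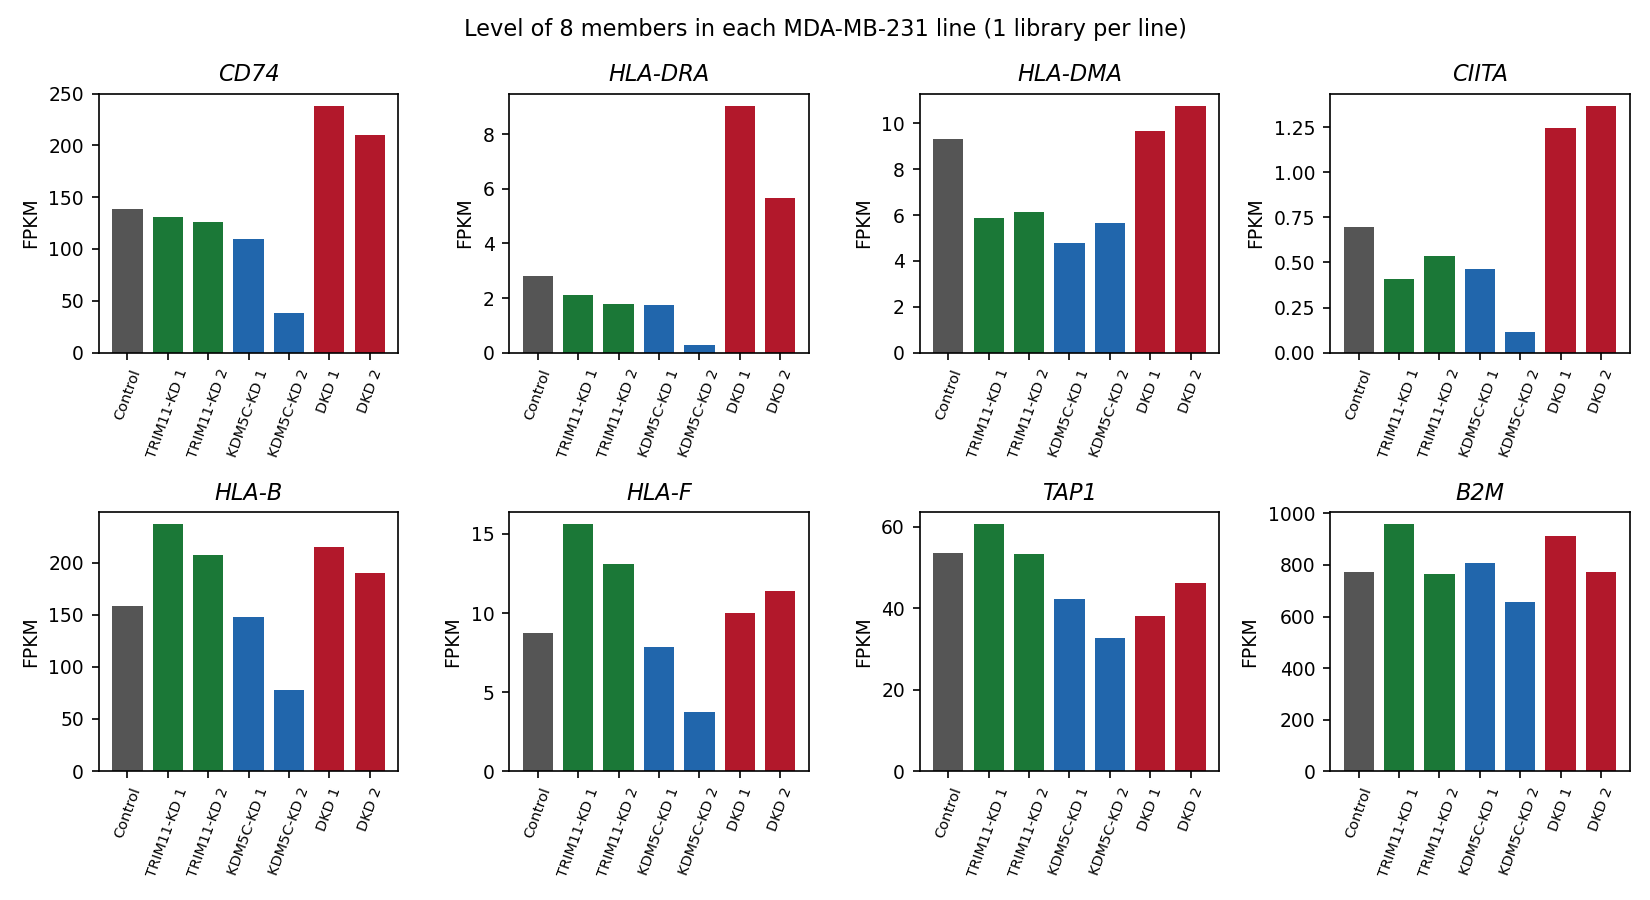
FPKM (vertical axis, from 0) of 4 class II members (top) and 4 class I members (bottom) in each of the 7 MDA-MB-231 lines, 1 library per bar, coloured by group. The DKD bars are the tallest in each class II panel (CD74 238.2 and 210.0 FPKM), and KDM5C-KD 2 is the lowest line for HLA-B (78.1 FPKM) and HLA-F (3.75 FPKM).

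DKD was compared with KDM5C-KD to ask what guides to TRIM11 add where KDM5C is also targeted. With limma on log2(FPKM + 1) over the 6 knockdown libraries, HLA-DRA was higher in DKD by 2.13 (SE 0.39, 95% interval 1.18 to 3.08) on the log2 scale. CD74 was higher by 1.77 (SE 0.44) and HLA-DMA by 0.85 (SE 0.14). CIITA differed by 0.85, but it was tested only because of its DKD levels, so no test is drawn from it. Without CIITA the class II median was 1.77, against 0.000194 over all 12633 genes tested. The limma adjusted p was 0.375 for each of HLA-DRA, CD74 and HLA-DMA. No member passed an adjusted p of 0.05, and no gene did (0% of genes). At an unadjusted p under 0.05, 5 of 18 members were higher in DKD, the other 3 of class II with HLA-B and HLA-F of class I, against 5.88% of genes called higher. Without KDM5C-KD 2 the differences were 1.58 for HLA-DRA, 1.02 for CD74, 0.65 for CIITA, 0.95 for HLA-DMA, 0.45 for HLA-B and 0.40 for HLA-F. Without KDM5C-KD 1, CD74 differed by 2.52 (limma adjusted p = 0.0274).

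Ratios of FPKM between single lines differed in size with the KDM5C-KD line they used. DKD 2 and KDM5C-KD 2 share KDM5C guide 2, and here HLA-DRA was 21.2 times, CIITA 12.0 times, CD74 5.48 times and HLA-DMA 1.90 times as high in DKD 2. DKD 1 against KDM5C-KD 1, which carries the other KDM5C guide, gave 5.17 times for HLA-DRA, 2.67 for CIITA, 2.17 for CD74 and 2.02 for HLA-DMA. Both DKD lines carry KDM5C guide 2, so KDM5C-KD 2 is the only KDM5C-KD line that matches either in its guide. HLA-DMA alone of the 4 differed about equally in both pairs.

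DKD was also set against TRIM11-KD, which asks what a guide to KDM5C adds. Lines of the same number share a TRIM11 guide here, and the fit did not pair them. HLA-DRA was higher in DKD by 1.48 (SE 0.39, limma adjusted p = 0.70) and HLA-DMA by 0.68 (SE 0.14, limma adjusted p = 0.70) on the log2 scale. CIITA differed by 0.65, given as a size only. CD74 differed by 0.80 (SE 0.44, limma adjusted p = 0.732). Without CIITA, 2 of 18 members (HLA-DRA and HLA-DMA) were higher at an unadjusted p under 0.05, against 3.78% of genes, and none passed adjustment (0.00792% of genes did). In class I, 14 of 15 members had a negative difference, with a median of -0.13 against 0.01 over all genes, and HLA-E (-0.37, SE 0.12) and TAP1 (-0.43, SE 0.17) had an unadjusted limma p under 0.05, with adjusted p of 0.70 and 0.709. These 2 lower members compare with 3.25% of genes called lower.

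A direct contrast asked whether the difference made by TRIM11 guides depended on the KDM5C guide: DKD minus KDM5C-KD, less TRIM11-KD minus Control. It was chosen after the data were seen and rests on the single Control library, whose spread is taken from the other groups. It was positive for HLA-DRA at 2.50 (SE 0.62), CD74 at 1.88 (SE 0.70) and HLA-DMA at 1.41 (SE 0.23) on the log2 scale. For each of these the limma adjusted p was 0.879. CIITA was at 1.06, given as a size only. Without CIITA, 3 of 18 members (HLA-DRA, CD74 and HLA-DMA) were above 0 at an unadjusted p under 0.05, against 3.03% of genes, and 0.0158% of genes passed adjustment. The class II median was then 1.88 and the class I median 0.06, against 0.01 over all genes.

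Control is a single library, so calls against it used no test: a member was called when both lines of a knockdown differed by at least 1.5 times in the same direction. In DKD, HLA-DRA (3.23 and 2.03 times Control) and CD74 (1.71 and 1.51 times) were called higher, 2 of 18 members against 5.71% of genes, and no member was called lower. CIITA, left out of that count, was at 1.78 and 1.96 times. In KDM5C-KD, HLA-DRA (0.625 and 0.0959 times), HLA-DMA (0.514 and 0.607 times) and PSMB10 (0.645 and 0.568 times) were called lower, 3 of 19 against 3.97% of genes. In TRIM11-KD, HLA-DMA (0.631 and 0.656 times) was called lower, 1 of 19 against 2.58% of genes. The 3 knockdowns share the Control library. CIITA in KDM5C-KD 1 was at 0.668 times Control, just short of the limit, and CD74 there was at 0.791 times.

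**Figure D2:**
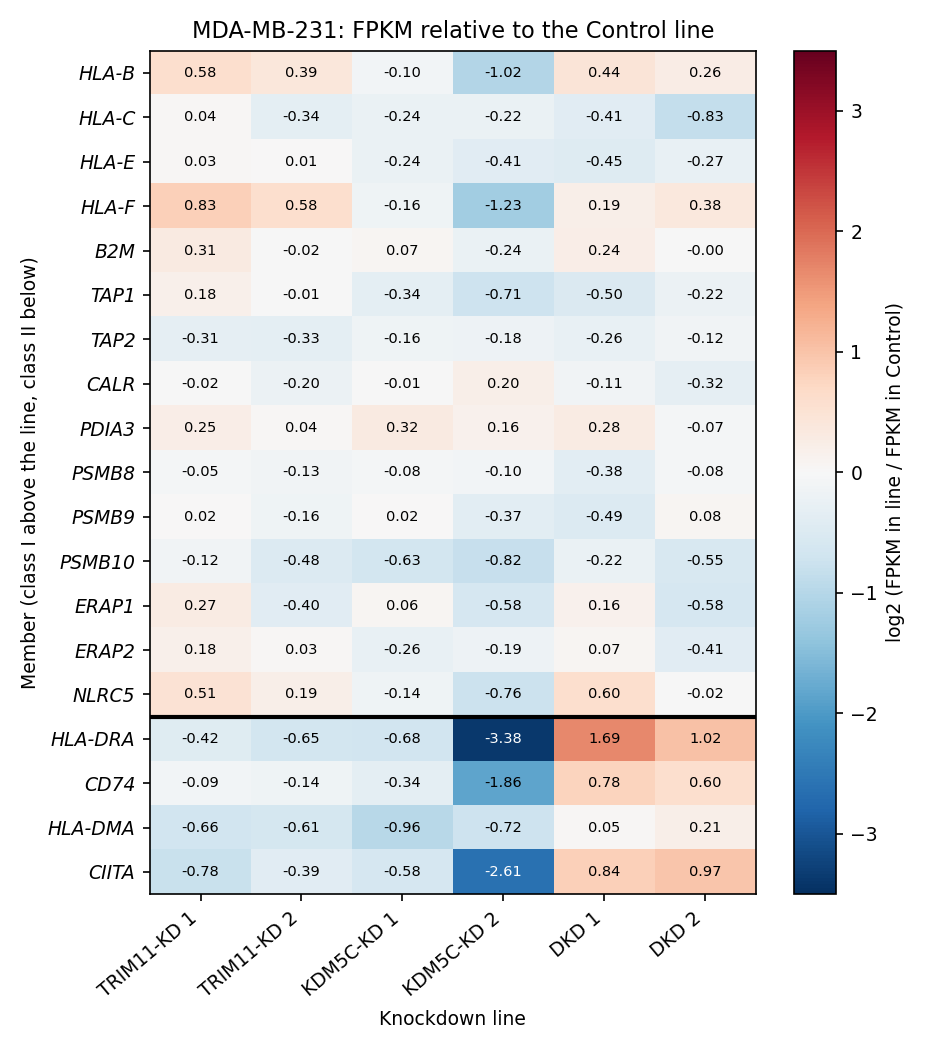
Log2 ratio of FPKM to the Control library for 19 human members (rows, class I above the line and class II below) in the 6 knockdown lines (columns). The class II rows are blue in the TRIM11-KD and KDM5C-KD columns, down to -3.38 for HLA-DRA in KDM5C-KD 2, and red in DKD, up to 1.69.

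HLA-DPA1, HLA-DMB, HLA-DPB1 and HLA-DRB1, class II genes from a list of pathway genes, were also higher in both DKD lines. Of these only HLA-DMB was below Control in both TRIM11-KD lines, as the 4 members were. HLA-DPA1, an alpha chain of HLA-DP, was at 3.91 FPKM in Control, 5.57 and 4.14 in TRIM11-KD, 5.31 and 1.13 in KDM5C-KD, and 16.8 and 13.4 in DKD. HLA-DMB, the partner chain of HLA-DMA, was at 1.38 FPKM in Control, 0.514 and 1.16 in TRIM11-KD, 0.226 and 0.182 in KDM5C-KD, and 1.84 and 2.07 in DKD. Both were higher in both DKD lines than in the other 5, but HLA-DPA1 was above Control in both TRIM11-KD lines and in KDM5C-KD 1. At low levels, HLA-DPB1 (0.276 FPKM in Control, 0.445 and 0.638 in TRIM11-KD) and HLA-DRB1 (0.322, then 0.669 and 0.365) were also above Control in TRIM11-KD. From the list of 22 other pathway genes 16 were tested, HLA-DPB1 and HLA-DRB1 only because of the DKD lines. Their means over the 5 lines without both guides were 0.349 and 0.337 FPKM, so these 2 are left out of the count. Of the rest, 2 genes (HLA-DPA1 and HLA-DMB) were higher in DKD than in KDM5C-KD at an unadjusted limma p under 0.05, against 5.88% of genes, and 0 lower. HLA-DQA1 and HLA-G were at 0 in every line, and HLA-DOA at 0.113 FPKM or less. The endosomal genes CTSL, LGMN and IFI30 were at 25.9 to 64.3 FPKM and were not among the 2.

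Of 17 regulators, 16 were tested and NFYA had no entry of its own. RFX5, the DNA-binding subunit of the RFX complex on MHC promoters, was at 23.3 FPKM in Control, 20.6 and 15.7 in KDM5C-KD, and 28.4 and 25.5 in DKD, a difference of 0.56 (SE 0.16, limma adjusted p = 0.375) between DKD and KDM5C-KD. RELA, an NF-kappaB subunit, was at 64.3 and 55.9 FPKM in KDM5C-KD and 82.3 and 87.4 in DKD, a difference of 0.49 (SE 0.13, limma adjusted p = 0.375). These were the 2 regulators of 16 with an unadjusted p under 0.05 in that contrast, both higher in DKD, against 5.88% of genes called higher, and a count of 2 in so short a list is not a result about the list. IRF1, JAK1 and JAK2 were not among them, with IRF1 at 11.8 and 7.12 FPKM in KDM5C-KD and 15.4 and 11.3 in DKD.

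In class I, B2M and the heavy chains were at very different levels per length of gene. B2M was at 773.0 FPKM in Control, 957.8 and 764.5 in TRIM11-KD, 808.9 and 655.5 in KDM5C-KD, and 911.9 and 772.7 in DKD. HLA-B, a classical heavy chain, was at 158.8 FPKM in Control, 236.8 and 207.7 in TRIM11-KD, 148.2 and 78.1 in KDM5C-KD, and 215.1 and 189.8 in DKD. HLA-F, a nonclassical heavy chain, was at 8.77 FPKM in Control, 15.6 and 13.1 in TRIM11-KD, 7.84 and 3.75 in KDM5C-KD, and 10.0 and 11.4 in DKD. For HLA-B and HLA-F all 4 lines with a TRIM11 guide were above Control, and both lines with a KDM5C guide alone were below it. HLA-E, which is read by NK cell receptors, was at 74.4 FPKM in Control, 75.8 and 74.8 in TRIM11-KD, 63.1 and 56.1 in KDM5C-KD, and 54.5 and 61.7 in DKD. Here the split followed the KDM5C guide: the 4 lines that carried it were below the 3 without. HLA-C, a classical heavy chain, was at 10.9 FPKM in Control, 11.3 and 8.63 in TRIM11-KD, 9.24 and 9.38 in KDM5C-KD, and 8.24 and 6.16 in DKD. HLA genes are polymorphic and alike in sequence, so reads can be lost or shared among them. How far this differs between the lines was not tested.

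TAP1, a subunit of the peptide transporter (chromosome 6, 32812986 to 32821593, hg19), was at 53.7 FPKM in Control, 60.7 and 53.4 in TRIM11-KD, 42.4 and 32.8 in KDM5C-KD, and 38.1 and 46.2 in DKD. As for HLA-E, the 4 lines with a KDM5C guide were below the 3 without. TAP2, its partner, was highest in Control at 34.7 FPKM, with 28.1 and 27.6 in TRIM11-KD, 31.0 and 30.7 in KDM5C-KD, and 29.0 and 31.9 in DKD. NLRC5 was at 5.13 FPKM in Control, 7.29 and 5.87 in TRIM11-KD, 4.66 and 3.02 in KDM5C-KD, and 7.75 and 5.06 in DKD, so it was lowest in KDM5C-KD, as were HLA-B and HLA-F. The gene span of TAP1, introns included, overlaps that of PSMB9 over 8608 bases on the opposite strand in the annotation (GENCODE v44 mapped to hg19). The libraries do not keep strand, so reads from exons that overlap could not be told apart. How far the exons overlap was not measured.

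KDM5C-KD against TRIM11-KD showed the class I differences at their widest. HLA-F was lower in KDM5C-KD by 1.24 (SE 0.29, limma adjusted p = 0.494), HLA-B by 1.04 (SE 0.29, limma adjusted p = 0.494), NLRC5 by 0.66 (SE 0.26, limma adjusted p = 0.499), TAP1 by 0.60 (SE 0.17, limma adjusted p = 0.494) and HLA-E by 0.34 (SE 0.12, limma adjusted p = 0.494) on the log2 scale. No member passed adjustment (0.00792% of genes did). These 5 of 19 members, all of class I, compare with 4.27% of genes lower at an unadjusted p under 0.05. The class I median was -0.18 and the class II median -0.43, against 0.01 over all genes. Without KDM5C-KD 2 the count was 2, and without TRIM11-KD 1 it was 1.

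**Figure D3:**
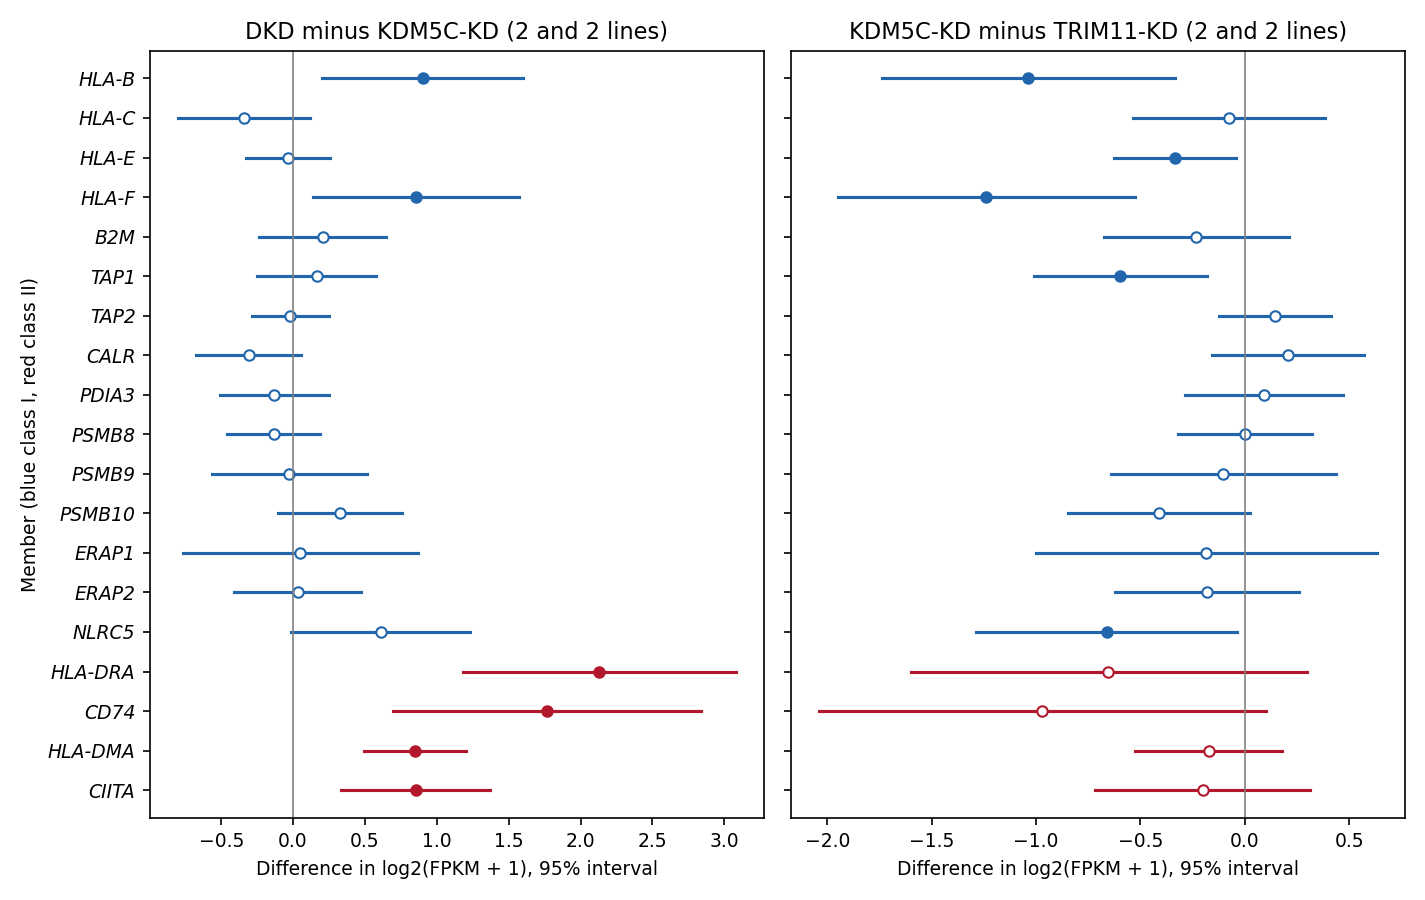
Differences in log2(FPKM + 1) with 95% limma intervals for 19 human members, DKD minus KDM5C-KD (left) and KDM5C-KD minus TRIM11-KD (right), 2 lines per group, filled points with unadjusted p under 0.05. On the left the 4 class II members lie between 0.85 and 2.13. They include CIITA, which was tested only because of its DKD levels. On the right HLA-F (-1.24) and HLA-B (-1.04) lie lowest.

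Over all 7 lines, an additive model with a term for each guide target used Control as well. With a KDM5C guide, HLA-E was lower by 0.35 (SE 0.09, limma adjusted p = 0.383), TAP1 by 0.46 (SE 0.12, limma adjusted p = 0.383) and HLA-C by 0.34 (SE 0.14, limma adjusted p = 0.446). Without CIITA these were 3 of 18 members lower at an unadjusted p under 0.05, against 5.18% of genes. With a TRIM11 guide, HLA-F was higher by 0.77 (SE 0.21, limma adjusted p = 0.448), HLA-B by 0.73 (SE 0.22, limma adjusted p = 0.448) and NLRC5 by 0.49 (SE 0.19, limma adjusted p = 0.456). Without CIITA these were 3 of 18 members higher at an unadjusted p under 0.05, against 5.19% of genes. The lowest adjusted limma p was 0.383 for the KDM5C term and 0.448 for the TRIM11 term, so no member passed, while 0.00791% and 0% of genes did. Class II members did not pass either term at an unadjusted p under 0.05, with medians of 0.11 and 1.02 without CIITA. Each term joins class II differences of opposite sign, so a small term does not mean no difference. Without CIITA the median was -1.02 for KDM5C-KD minus Control and 0.795 for DKD minus TRIM11-KD. For TRIM11-KD minus Control it was -0.371, and for DKD minus KDM5C-KD 1.77. KDM5C-KD 2 and both DKD lines carried KDM5C guide 2, so the KDM5C term leans on that guide.

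The remaining class I members process, trim and load peptides. PSMB8, PSMB9 and PSMB10 are the catalytic subunits of the immunoproteasome. PSMB8 was at 68.0 FPKM in Control, 65.5 and 62.3 in TRIM11-KD, 64.4 and 63.5 in KDM5C-KD, and 52.2 and 64.6 in DKD. PSMB9 was at 35.6 FPKM in Control, 36.1 and 31.9 in TRIM11-KD, 36.2 and 27.5 in KDM5C-KD, and 25.4 and 37.6 in DKD. PSMB10 was at 41.9 FPKM in Control, 38.6 and 29.9 in TRIM11-KD, 27.0 and 23.8 in KDM5C-KD, and 36.0 and 28.5 in DKD. PSMB10 was the 1 subunit of the 3 whose KDM5C-KD lines were both below the other 5. The trimming enzyme ERAP1 was at 16.7 FPKM in Control, 20.2 and 12.6 in TRIM11-KD, 17.4 and 11.2 in KDM5C-KD, and 18.7 and 11.2 in DKD. It was thus lower in line 2 than in line 1 of every knockdown. ERAP2, a related enzyme, was at 1.29 FPKM in Control, 1.47 and 1.32 in TRIM11-KD, 1.08 and 1.14 in KDM5C-KD, and 1.36 and 0.974 in DKD.

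The loading chaperones were abundant. CALR, a lectin, was at 848.1 FPKM in Control, 836.6 and 736.0 in TRIM11-KD, 843.2 and 974.5 in KDM5C-KD, and 784.4 and 681.3 in DKD. PDIA3, a disulfide isomerase that works with it, was at 121.2 FPKM in Control, 143.7 and 124.9 in TRIM11-KD, 150.9 and 135.5 in KDM5C-KD, and 146.9 and 115.8 in DKD. Each stayed within 1.5 times from the lowest to the highest line. The joint entry of TAPBP (tapasin, which bridges TAP and class I) was at 68.1 FPKM in Control, 67.2 and 54.1 in TRIM11-KD, 59.9 and 52.2 in KDM5C-KD, and 53.7 and 53.2 in DKD. Of PSMB8, PSMB9, PSMB10, ERAP1, ERAP2, CALR and PDIA3, none passed an unadjusted limma p of 0.05 in the 3 contrasts between knockdowns.

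In the tumors every member had a lower fitted mean in Trim11+/- than in Trim11+/+, 15 of 15 in class I and 6 of 6 in class II, while 50.9% of the 17328 genes tested did. For 2 members that sign rests on single tumors: without Trim11+/+ tumor 1, H2-T23 differed by 0.43 and H2-Eb1 by 0.47, and without Trim11+/- tumor 2, H2-T23 differed by 0.22. The class I median difference was -0.42 and the class II median -0.65 on the log2(FPKM + 1) scale, against -0.00475 over all genes. Bulk tumors hold many cell types, and fewer cells of a type cannot be told apart from less RNA per cell. With limma no member passed an adjusted p of 0.05, and 1 gene did (0.00577% of genes). At an unadjusted p under 0.05, 4 class I members (Tap1, B2m, Calr and H2-D1) and 2 class II members (H2-Aa and H2-Ab1) were lower, against 3.29% of genes called lower.

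Tap1 (chromosome 17, 34187553 to 34197225, mm10) was at 12.1, 13.5 and 12.1 FPKM in Trim11+/+ and 6.85, 8.33 and 6.37 FPKM in Trim11+/-, from 375 to 754 reads per tumor. The groups did not overlap, the ratio of means was 0.572, and the difference was -0.73 (SE 0.12, limma adjusted p = 0.435). B2m, the class I light chain (chromosome 2, 122147686 to 122153083), was at 571.7, 665.4 and 442.9 FPKM in Trim11+/+ and 330.3, 337.3 and 310.3 FPKM in Trim11+/-. The Trim11+/- tumors were close together, 326.0 ± 14.0 FPKM (SD, n = 3) against 560.0 ± 111.7 FPKM (SD, n = 3). The difference was -0.76 (SE 0.17, limma adjusted p = 0.592). Calr, a lectin chaperone, was at 264.2, 298.5 and 313.2 FPKM in Trim11+/+ and 220.5, 215.7 and 194.7 FPKM in Trim11+/-, a difference of -0.47 (SE 0.11, limma adjusted p = 0.594). Pdia3, its partner, was at 247.0, 273.4 and 268.2 FPKM in Trim11+/+ and 230.7, 225.6 and 242.1 FPKM in Trim11+/-, and differed by -0.17 (SE 0.10, limma adjusted p = 0.759), although its groups did not overlap either.

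Among the heavy chains, H2-D1 was at 393.3, 431.5 and 341.1 FPKM in Trim11+/+ and 304.1, 324.2 and 243.3 FPKM in Trim11+/-, a difference of -0.42 (SE 0.16, limma adjusted p = 0.698). H2-K1 was at 273.7, 160.3 and 110.0 FPKM in Trim11+/+ and 98.1, 104.9 and 186.1 FPKM in Trim11+/-, and the groups overlapped. H2-Q4, a nonclassical heavy chain whose close relatives can share its reads, was at 51.5, 80.6 and 57.1 FPKM in Trim11+/+ and 66.4, 57.7 and 33.5 FPKM in Trim11+/-, and the groups overlapped too. H2-K1 and H2-Q4 differed by -0.44 (SE 0.38) and -0.29 (SE 0.28), with limma adjusted p of 0.838 and 0.860.

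Of the other transport and processing genes, Tap2 was at 19.0, 30.9 and 24.4 FPKM in Trim11+/+ and 21.7, 18.2 and 11.4 FPKM in Trim11+/-. Psmb9 was at 8.43, 12.2 and 6.26 FPKM in Trim11+/+ and 7.52, 6.12 and 4.27 FPKM in Trim11+/-. In both the groups overlapped and Trim11+/- tumor 3 was lowest, with differences of -0.53 (SE 0.26, limma adjusted p = 0.735) for Tap2 and -0.50 (SE 0.27, limma adjusted p = 0.746) for Psmb9. Psmb8 was at 21.5, 39.6 and 23.02 FPKM in Trim11+/+ and 23.5, 21.3 and 18.6 FPKM in Trim11+/-. Psmb10 was at 25.0, 32.7 and 22.0 FPKM in Trim11+/+ and 28.1, 19.4 and 16.5 FPKM in Trim11+/-. For each of the 3 immunoproteasome subunits Trim11+/+ tumor 2 was highest of all. Tapbp was at 29.6, 55.0 and 48.8 FPKM in Trim11+/+ and 48.1, 47.3 and 26.0 FPKM in Trim11+/-, lowest in Trim11+/- tumor 3 and next in Trim11+/+ tumor 1. Erap1 was at 16.1, 13.8 and 13.3 FPKM in Trim11+/+ and 13.7, 12.1 and 13.9 FPKM in Trim11+/-. Nlrc5 was at 4.83, 2.77 and 1.99 FPKM in Trim11+/+ and 1.33, 2.33 and 2.98 FPKM in Trim11+/-, from 126 to 448 reads, highest in Trim11+/+ tumor 1 and Trim11+/- tumor 3. Psmb8, Psmb10, Tapbp, Erap1 and Nlrc5 differed by -0.35, -0.32, -0.14, -0.11 and -0.36, all with overlapping groups and with limma adjusted p from 0.804 (Psmb8) to 0.950 (Tapbp).

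Of the class II chains, H2-Ab1 was at 37.2, 50.02 and 36.8 FPKM in Trim11+/+ and 30.7, 29.1 and 13.8 FPKM in Trim11+/-, a difference of -0.80 (SE 0.31, limma adjusted p = 0.707). H2-Aa, its partner chain in I-A, was at 24.2, 28.0 and 17.9 FPKM in Trim11+/+ and 16.9, 16.4 and 11.4 FPKM in Trim11+/-, a difference of -0.61 (SE 0.21, limma adjusted p = 0.678). In both genes the groups did not overlap, and Trim11+/- tumor 3 was lowest. Cd74 was at 123.0, 211.2 and 181.8 FPKM in Trim11+/+ and 155.7, 138.3 and 49.4 FPKM in Trim11+/-, a difference of -0.71 (SE 0.45, limma adjusted p = 0.787) with overlapping groups. H2-DMa, the mouse HLA-DMA, was at 10.4, 11.1 and 10.9 FPKM in Trim11+/+ and 11.5, 10.4 and 8.66 FPKM in Trim11+/-. Ciita was at 1.56, 1.44 and 1.69 FPKM in Trim11+/+ and 1.42, 1.12 and 1.48 FPKM in Trim11+/-, from 94 to 162 reads. These were the smallest class II differences, -0.08 (SE 0.12) and -0.13 (SE 0.14), with limma adjusted p of 0.909 and 0.868. Without Trim11+/- tumor 3 the class II median was -0.32, and without Trim11+/+ tumor 2 the count of members at an unadjusted p under 0.05 was 3.

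**Figure D4:**
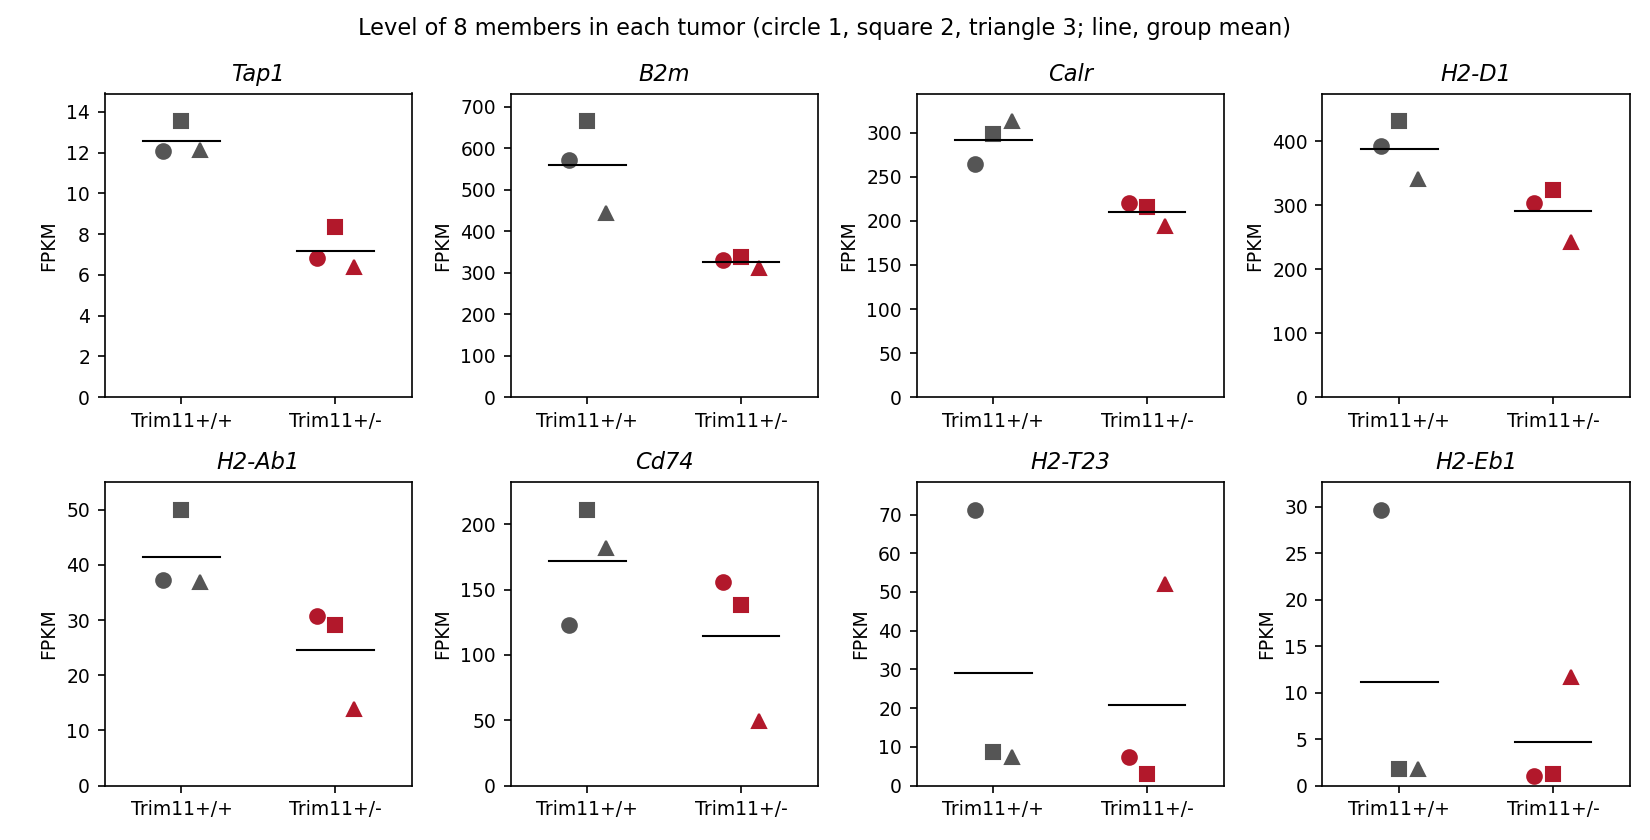
FPKM (vertical axis, from 0) of 8 mouse members in each of the 3 Trim11+/+ and 3 Trim11+/- tumors, with the group mean as a line. Circles are tumor 1, squares tumor 2 and triangles tumor 3. For Tap1, B2m, Calr, H2-D1 and H2-Ab1 the genotypes do not overlap, while H2-T23 and H2-Eb1 are high in the same 2 tumors, 1 of each genotype.

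For 7 of 21 members (H2-D1, B2m, Tap1, Calr, Pdia3, H2-Aa and H2-Ab1) all 3 Trim11+/- tumors lay under the lowest Trim11+/+ tumor, against 6.78% of genes. Each has an exact two-sided permutation p of 0.1, the smallest that 3 against 3 tumors allow. By the rule of a ratio of means of at least 1.5 with an unadjusted limma p under 0.05, B2m, Tap1, H2-Aa and H2-Ab1 were called lower, 4 of 21 against 1.87% of genes, and no member was called higher.

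**Figure D5:**
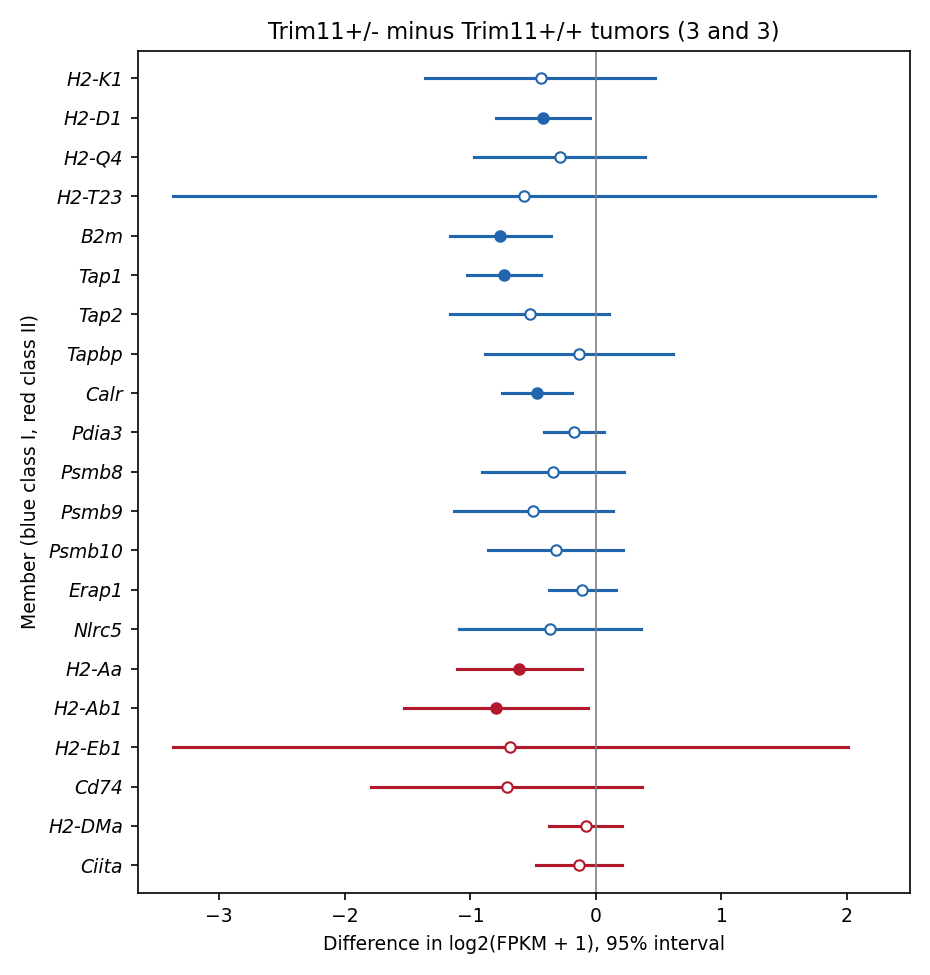
Differences in log2(FPKM + 1), Trim11+/- minus Trim11+/+ tumors, with 95% limma intervals for 21 mouse members (3 tumors per group), filled points with unadjusted p under 0.05. Every point lies below 0, from -0.08 for H2-DMa to -0.80 for H2-Ab1, and the intervals of H2-T23 and H2-Eb1 are the widest.

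A pair of tumors stood apart in MHC genes whatever their genotype. H2-T23, the nonclassical heavy chain that encodes Qa-1, was at 71.3, 8.78 and 7.28 FPKM in Trim11+/+ and 7.32, 3.03 and 52.0 FPKM in Trim11+/-. H2-Eb1, the I-E beta chain, was at 29.7, 1.82 and 1.79 FPKM in Trim11+/+ and 1.02, 1.29 and 11.7 FPKM in Trim11+/-. For both genes Trim11+/+ tumor 1 and Trim11+/- tumor 3 were far above the other 4, where H2-Eb1 had 22 to 36 reads. H2-K1 was highest in the same tumors (273.7 and 186.1 FPKM), and H2-DMb2, a chain of H2-DM, was lowest there (0.995 and 0.639 FPKM against 2.54 to 5.18 FPKM). The hybrid cross joins strains with different MHC haplotypes, mm10 is a C57BL/6 genome, and the haplotype of each tumor is not in the labels, so its part in these values was not tested. Without both tumors the class I median difference was -0.33 and the class II median -0.40. This fit was chosen after the data were seen, and no member passed an adjusted p of 0.05 in limma. Tap1 then differed by -0.69, B2m by -0.70, Calr by -0.49, H2-D1 by -0.29, H2-Aa by -0.41 and H2-Ab1 by -0.51, with adjusted p from 0.370 to 0.624.

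The tumors were checked for markers of the cells they can hold. The 9 markers of macrophages and dendritic cells summed to 280.0 to 407.0 FPKM in Trim11+/+ and 237.0 to 327.0 FPKM in Trim11+/- tumors, and all 7 that were tested had negative differences, with a median of -0.22 and none at an unadjusted limma p under 0.05. Of the 9, Csf1r, Cd68, Itgax and Xcr1 were lowest of all 6 tumors in Trim11+/- tumor 3, where Cd74 was lowest, and the other 5 were lowest in Trim11+/- tumor 2. The 3 fibroblast markers (median -0.22) and the 3 endothelial markers (median -0.18) also all had negative differences, with none at an unadjusted limma p under 0.05, and summed to 37.5 to 88.0 against 39.8 to 62.3 FPKM and to 9.65 to 15.0 against 7.92 to 13.7 FPKM. The 7 T cell markers summed to 2.09 to 6.22 FPKM and 1.18 to 3.49 FPKM, and the 4 B cell markers to 0.138 to 0.958 FPKM and 0.121 to 0.575 FPKM. Ptprc was at 2.02 to 2.08 FPKM and at 1.45 to 2.08 FPKM. The 5 epithelial markers summed to 1400 to 1700 FPKM and 1320 to 1830 FPKM, which matches the labelled tissue. The part of these cells in the class II values was not tested.

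Of 17 regulators in the tumors, 12 had a negative difference, with a median of -0.07. Irf1 was at 14.6 to 21.1 FPKM over the 6 tumors. Of 18 tested genes of the other pathway list, H2-Q7 had an unadjusted p under 0.05 (-0.84, SE 0.32, limma adjusted p = 0.707), and the list's median was -0.08. The standard proteasome subunits Psmb5, Psmb6 and Psmb7 differed by -0.08, 0.21 and 0.06.

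The cell lines and tumors are set side by side for TAP1, B2M and CD74, with no test that joins them. These are not all the members found in both species. TAP1 was at 1.13 and 0.994 times Control in TRIM11-KD, and Tap1 in Trim11+/- tumors was at 0.572 times its mean in Trim11+/+ tumors. B2M was at 1.24 and 0.989 times Control in TRIM11-KD, and B2m in Trim11+/- tumors was at 0.582 times its mean in Trim11+/+ tumors. CD74 was at 0.942 and 0.908 times Control in TRIM11-KD, and Cd74 was at 0.666 times with overlapping tumors. The lines and the tumors differ in species, cell makeup and in how TRIM11 was targeted.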

How the data were processed

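RNA-seq of 7 MDA-MB-231 lines and 6 mouse tumors was used. Both tables hold FPKM, which per the study's methods the authors made by trimming with Cutadapt, mapping with HISAT2 to hg19 or mm10 and running Cufflinks, and deposited without pooling replicates. The submitters' processing notes also name Bowtie 0.12.2. Libraries were non-directional, and human depth is unknown. In the mouse table, 98.8% of values up to 200 reads were whole multiples of 1 read (within 0.02 reads), so reads could be recovered.

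Groups came from the labels. With limma 3.58.1 in R 4.3.3, log2(FPKM + 1) was fitted for genes with a mean of at least 0.5 FPKM, with a trend in the prior variance and Benjamini-Hochberg adjustment over all genes tested. The 6 tumors, the 6 knockdown lines (group means) and all 7 lines (a TRIM11 and a KDM5C guide term) were fitted apart. The exact permutation test (SciPy 1.17.1) was two-sided. A fold change on this scale understates that of low genes. The script was tested on simulated data. All 41 members are reported in every library, and other genes come from lists of regulators, other pathway genes and cell markers. The members and lists were chosen with earlier results of these data known. Alternatives were the pseudocount, filter, scaling, prior trend, a replicate block and leaving out each library, and reads with limma voom in tumors. The latter, the interaction contrast and leaving out both tumors high in H2-T23 were chosen after seeing the data. Some genes of these lists are not reported here.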

Additional observations from a re-analysis of the deposited data

Results flagged for a closer look

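In 5 of 19 human members (4 of 18 without CIITA, which was tested only because of its DKD levels) both TRIM11-KD lines lay on one side of Control, and both DKD lines lay on the opposite side of both KDM5C-KD lines, which 11.9% of the 12636 genes tested also did. The difference between the TRIM11 guides' effects with and without a KDM5C guide was 2.50 for HLA-DRA, 1.88 for CD74, 1.41 for HLA-DMA, 1.06 for CIITA and 0.618 for PSMB10 on the log2 scale, in limma over 7 libraries. The limma adjusted p was 0.879 for HLA-DRA, CD74, HLA-DMA and PSMB10. These members were picked by the same values that the contrast uses, which pushes it away from 0. Its sizes and p-values are therefore no separate support. The contrast rests on 1 Control library. With groups of 1 to 3 samples, a single sample far from the others could not be looked for by test.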

How the results depend on the processing

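Of 428 values of single genes under the alternatives, 3 had the opposite sign and 1 passed an adjusted p of 0.05 (CD74, DKD minus KDM5C-KD, without KDM5C-KD 1), and 44 of 380 medians and counts moved. In tumors, H2-T23 ran from -1.64 to 0.429 and H2-Eb1 from -1.54 to 0.469 over the tumors left out, with 0.221 for H2-T23 without Trim11+/- tumor 2. The tumor class II median ran from -0.718 to -0.317 and was -0.397 without both tumors high in H2-T23, and 3 to 7 members had an unadjusted p under 0.05. Leaving out lines, class II medians ran from 0.019 to 0.736 (KDM5C guide, 2 to 5 members), 0.338 to 1.31 (TRIM11 guide, 2 to 6), 0.985 to 1.78 (DKD minus KDM5C-KD, with 0 to 1 at an adjusted p under 0.05) and -0.805 to -0.16 (KDM5C-KD minus TRIM11-KD, 1 to 7 members, class I -0.384 to -0.07). DKD minus TRIM11-KD gave 2 to 7 members. The interaction ran from -0.0938 to 0.233 in class I and 1.32 to 1.97 in class II. These medians and counts of the lines, and those under a pseudocount of 0.1, keep CIITA, unlike the Results. The share of all genes was not counted beside the counts under alternatives, so these are not results about the members. With CIITA the main class II medians were 0.17 (KDM5C guide), 0.721 (TRIM11 guide), 1.31 (DKD minus KDM5C-KD), 0.736 (DKD minus TRIM11-KD) and 1.64 (interaction). A pseudocount of 0.1 gave class II medians of 1.9, -0.844 and 1.05 for DKD minus KDM5C-KD, KDM5C-KD minus TRIM11-KD and DKD minus TRIM11-KD, and a mean of at least 1 FPKM gave 1.77 over 3 members for the first.

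Against Control, TRIM11-KD had 0 members lower at 2-fold, with a pseudocount of 1 or at an adjusted p in limma (1 at an unadjusted p), 2 and 2 with a line left out, and 1 higher by the mean of lines or median-ratio scaling (0 to 1 with a line left out). KDM5C-KD had 0 lower at 2-fold and 0 at an adjusted p in limma (3 at an unadjusted p), 6 by the mean of lines and 3 to 9 with a line left out. DKD had 1 lower by the mean of lines (0 to 1), 1 higher at 2-fold and 0 at an adjusted p in limma (0 at an unadjusted p). With a line left out, 1 line meets the rule alone. The cause of the other moves was not tested.

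With the replicate number as a block, 9 members passed an unadjusted p of 0.05 in KDM5C-KD minus TRIM11-KD. The share of all genes under that fit was not counted, so this count is not a result about the members. Same-numbered tumors did not deviate together (correlations -0.33, 0.0385 and -0.13), so tumor numbers were not taken as pairs. Same-numbered lines gave 0.0873 (KDM5C-KD and TRIM11-KD), 0.273 (DKD and KDM5C-KD) and 0.371 (DKD and TRIM11-KD). DKD and TRIM11-KD lines of the same number share a TRIM11 guide, and the main fits did not use this pairing. Depth limits H2-Eb1 and Ciita most, and is unknown in the human libraries.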
